A study of Homo sapiens with 40 samples.

Results

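The genes described here encode the B cell receptor, its coreceptors and the proteins that carry or dampen its signal. They were taken from a list of 32 gene symbols, and 31 of them had a probe set annotated to that symbol alone, of 19775 genes represented in this way. The remaining listed gene was not analysed here. Each gene was read from the probe set with the highest mean over the 40 arrays, and all 31 passed the filter on low values that left 15211 genes for testing. By role they comprised 8 receptor and surface genes, 8 kinases, 10 adaptors and effectors, and 5 brakes.

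Transcripts were measured in 10 established cell lines of diffuse large B-cell lymphoma, a tumour of mature B cells. EZH2 is mutant in DB, Pfeiffer, WSU-DLCL2, KARPAS-422 and the lines SU-DHL-4, SU-DHL-6 and SU-DHL-10, without the labels naming the allele, and wild type in OCI-LY-19, HT and Toledo. Each line received 500 nM GSK126 in 0.1% DMSO, or 0.1% DMSO alone as vehicle, for 72 h. A line has 2 arrays of each. GSK126 is a small-molecule inhibitor of EZH2, the catalytic subunit of the Polycomb repressive complex that methylates histone H3 at silenced genes. Sensitivity to GSK126 is given in the labels as a growth IC50, a concentration that inhibits proliferation. Pfeiffer had a value of 28 nM, WSU-DLCL2 of 134 nM and KARPAS-422 of 232 nM. SU-DHL-10 followed with 448 nM, HT with 516 nM, SU-DHL-6 with 582 nM, DB with 861 nM and OCI-LY-19 with 1019 nM. SU-DHL-4 (4828 nM) and Toledo (13786 nM) were the least sensitive. A genotype is therefore represented by a few tumour lines, and a difference between genotypes is one between these lines. In such bulk RNA a change in every cell and a change in the share of cells cannot be told apart.

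Engagement of the surface immunoglobulin brings the CD79A and CD79B chains to the Src-family kinases LYN, BLK and FYN, which phosphorylate them and recruit SYK. SYK and BTK act through the adaptor BLNK on the phospholipase PLCG2, and from there calcium, protein kinase C beta and the BCL10 and MALT1 proteins lead to NF-kB and Ras signalling. The receptors CD22 and CD72 carry inhibitory motifs that recruit the phosphatase PTPN6, while the lipid phosphatase INPP5D removes the product of PI3K. Many diffuse large B-cell lymphomas depend on this pathway for survival, and its kinases are drug targets in the disease.

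Levels are given as log2(signal + 17.72), where the signal is the array brightness of a probe set and 17.72 is a pseudocount that dampens the scatter of dim probe sets. The median of all probe sets on an array lay between 6.26 and 6.73 on this scale. A level is comparable between arrays for the same gene and not between genes, since probe sets differ in brightness. Over all probe sets the correlation between replicate arrays was 0.973 to 0.985, and between different lines 0.864 to 0.957. The B cell markers PAX5, CD79A, CD79B and CD22 were above the array median on all 40 arrays. MS4A1 and BLK were below it on the 4 OCI-LY-19 arrays, and EBF1 was below it on 2 Pfeiffer arrays. The mean level of the myeloid markers ranged from 5.34 to 6.11 under DMSO and from 5.25 to 6.02 under GSK126, and that of the T and NK cell markers from 5.71 to 7.61 and from 5.83 to 7.44. For stromal and epithelial markers these ranges were 5.40 to 7.36 and 5.63 to 7.55, for erythroid and endothelial markers 5.85 to 6.76 and 5.94 to 6.94, and for plasma cell markers 7.93 to 10.56 and 8.08 to 11.25. Among the markers of other cell types, CD247, PRF1, COL1A1, PECAM1 and the plasma cell gene XBP1 were above the array median on every array. Others were bright on some arrays only, which the mean levels hide. CD8A was above the median on 8 arrays and reached 13.94. The same values were 7 arrays and 12.39 for CD3D, 4 and 11.96 for CD3G, and 4 and 13.62 for EPCAM. Plasma cell markers were called in both directions with GSK126. TNFRSF17 rose in 5 lines (0.29 to 0.90), PRDM1 in Pfeiffer (2.77 ± 0.36) and KARPAS-422 (1.51 ± 0.36), while XBP1 fell in HT (-0.51), KARPAS-422 (-0.52) and WSU-DLCL2 (-1.51) and SDC1 in KARPAS-422 (-0.92). Of the markers of the remaining types, CD247 fell in 2 lines, CSF1R and ITGAM in 1 each, and LYZ and PECAM1 rose in 1 each. The part of these genes in the results was not tested.

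Under DMSO the lines differed widely in the level of these genes. The level differed between lines for 31 of 31 members, against 84.6% of all genes tested (limma F test over the 10 lines, Benjamini-Hochberg adjusted p under 0.05). The median range from the lowest to the highest line was 4.80 log2 units for the members and 1.59 for all genes tested. OCI-LY-19 had the lowest level of all lines for 13 of 31 members, against 9.97% of all genes. Pfeiffer and DB had the lowest for 6 of 31 members each, against 9.98% and 9.22% of all genes. KARPAS-422 had the highest level for 8 of 31 members, against 12% of all genes.

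The 5 widest ranges belonged to MS4A1, RASGRP3, PIK3CD, CD24 and BLK. MS4A1 encodes the surface antigen targeted by rituximab, and its DMSO arrays read 5.44 and 5.84 in OCI-LY-19 against 12.32 to 14.42 in the other 9 lines. RASGRP3, an activator of Ras that responds to diacylglycerol, read 5.20 and 4.85 in OCI-LY-19, 7.07 and 6.90 in KARPAS-422, 7.12 and 7.53 in Toledo, and 13.12 and 13.11 in HT, with the other 6 lines between 9.95 and 11.87. PIK3CD, the delta catalytic subunit of PI3K in leukocytes, read 6.55 and 6.03 in OCI-LY-19 and 13.72 and 13.68 in Toledo, with every other array between 9.78 and 12.50. These genes shared a low level in OCI-LY-19, but CD24 did not. CD24, a lipid-anchored surface glycoprotein of B cells, was low in HT at 7.31 and 7.29 and in WSU-DLCL2 at 8.34 and 8.41, and read 13.20 and 13.29 in OCI-LY-19. BLK, a Src-family kinase found mainly in B cells, read 4.79 and 4.89 in OCI-LY-19, below the array median, against 9.18 to 12.10 elsewhere.

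**Figure D1:**
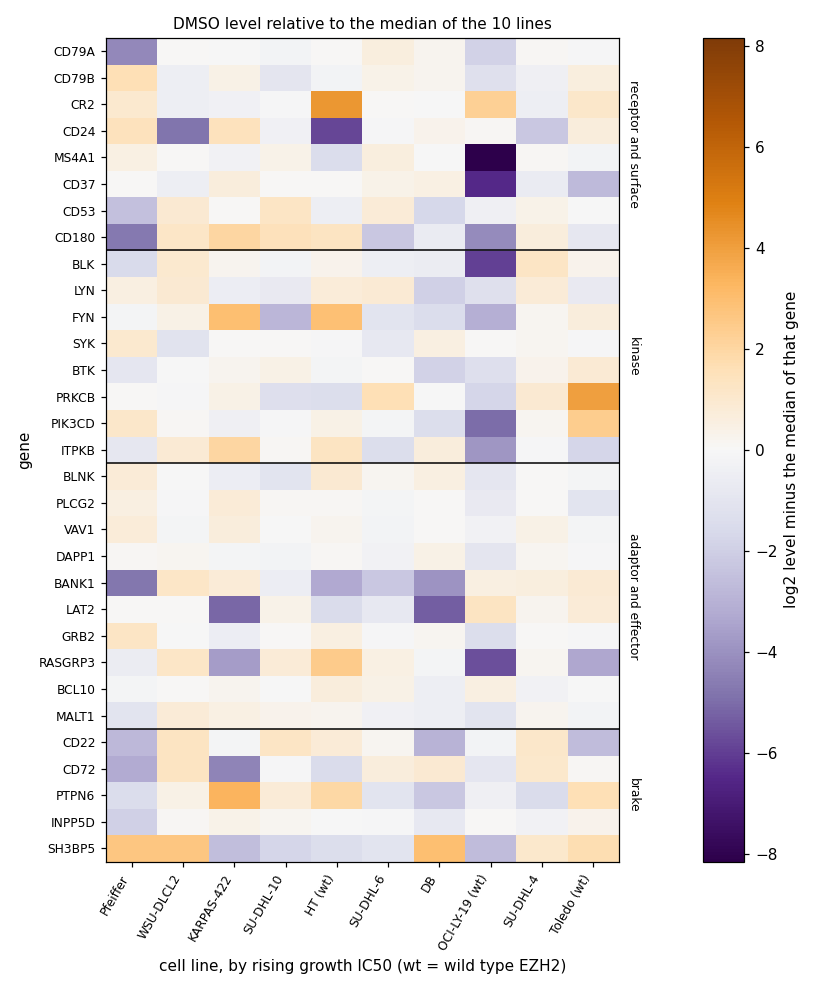
DMSO level of each of the 31 genes in each of the 10 lines, as the mean of 2 arrays minus the median of that gene over the lines, in log2 units; lines run from the lowest to the highest growth IC50 and genes are grouped by role. Dark purple cells in the OCI-LY-19 column mark the low levels of MS4A1, CD37, BLK, PIK3CD and RASGRP3.

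The question of which members GSK126 changed was asked within each line. A gene was called risen or fallen at an adjusted p under 0.05 (limma on all 40 arrays, Benjamini-Hochberg over 15211 genes). Of 310 pairs of a gene and a line, 60 were risen and 24 fallen. This is 19.4% and 7.74% of the pairs, against 7.55% and 5.13% over all genes. The members were chosen with earlier results of these data known. The part of that choice in this and later comparisons with all genes was not tested. In all, 28 members were called in at least 1 line, 15 of them only as risen, 3 only as fallen and 10 in both directions. Of all genes 57.3% were called in at least 1 line, 28.9% only as risen, 19.3% only as fallen and 9.09% in both directions. ITPKB, PLCG2 and BANK1 were called in no line. Of the 15 called pairs that changed by at least 1 log2 unit, 14 were rises, where 2.06% of all pairs rose and 0.306% fell by that much. In every called pair the GSK126 arrays did not overlap the DMSO arrays. With 2 arrays per treatment a call nearly requires this, so it adds no support to the calls. Some uncalled pairs did not overlap either, such as CR2 in WSU-DLCL2 (0.18) and CD79B in OCI-LY-19 (0.06).

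In Pfeiffer, whose growth IC50 is the lowest, 16 of 31 members rose and 0 fell, where 14.6% of all genes rose and 9.93% fell. WSU-DLCL2 had 15 risen and 5 fallen members against 13.9% and 12.7% of all genes. In KARPAS-422 the members were 9 risen and 5 fallen (15.5% and 13.4% of all genes), and in SU-DHL-10 they were 4 risen and 5 fallen (11% and 7.16%). HT differed in its balance, with 1 member risen and 8 fallen where 6.31% of all genes rose and 3% fell. SU-DHL-6 had 4 risen and 1 fallen (7.42% and 3.56%). DB had 2 risen and 0 fallen (2.5% and 0.618%), and SU-DHL-4 likewise 2 and 0 (2.14% and 0.454%). OCI-LY-19 is wild type with a growth IC50 of 1019 nM, and 7 members rose and 0 fell there against 1.97% and 0.44% of all genes. No member was called in Toledo (limma), where 0.138% of all genes rose and 0.0263% fell, and 0 members had an unadjusted p under 0.05. Where 0 members were called as fallen, 1 had an unadjusted p under 0.05 in that direction in Pfeiffer, 4 in DB, 1 in OCI-LY-19 and 3 in SU-DHL-4 (limma). The median change of the members was 0.27 in Pfeiffer, 0.21 in WSU-DLCL2 and 0.13 in OCI-LY-19, against 0.07, 0.07 and 0.01 for all genes, and lay between -0.05 and 0.08 in the other lines.

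The balance of rises and falls depended on how arrays were scaled. With every array brought to the same median signal, the median of all genes shifted to -0.17 in SU-DHL-10, -0.16 in WSU-DLCL2, -0.14 in both SU-DHL-6 and KARPAS-422, and -0.12 in Toledo. Members risen and fallen were then 8 and 1 in Pfeiffer, where 6.42% of all genes rose and 14.5% fell. In KARPAS-422 they were 5 and 9 (10.2% and 21.7% of all genes), in WSU-DLCL2 8 and 6 (5.46% and 24.3%) and in SU-DHL-10 2 and 12 (5.13% and 21.8%). HT had 1 and 5 (3.33% and 2.25%), and SU-DHL-6 also 1 and 5 (3.75% and 12.5%). DB had 2 and 1 (2.24% and 0.243%), SU-DHL-4 2 and 0 (1.13% and 0.118%), OCI-LY-19 3 and 0 (0.841% and 0.243%) and Toledo 0 and 0 (0.0592% and 0.0526%). The falls of members under this scaling thus stood beside many falls among all genes in Pfeiffer, SU-DHL-6, WSU-DLCL2, KARPAS-422 and SU-DHL-10. Of the 84 called pairs, 53 were called under that scaling, 47 under every omission of 1 of the 4 arrays of a line, and 31 under every setting and omission tried.

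**Figure D2:**
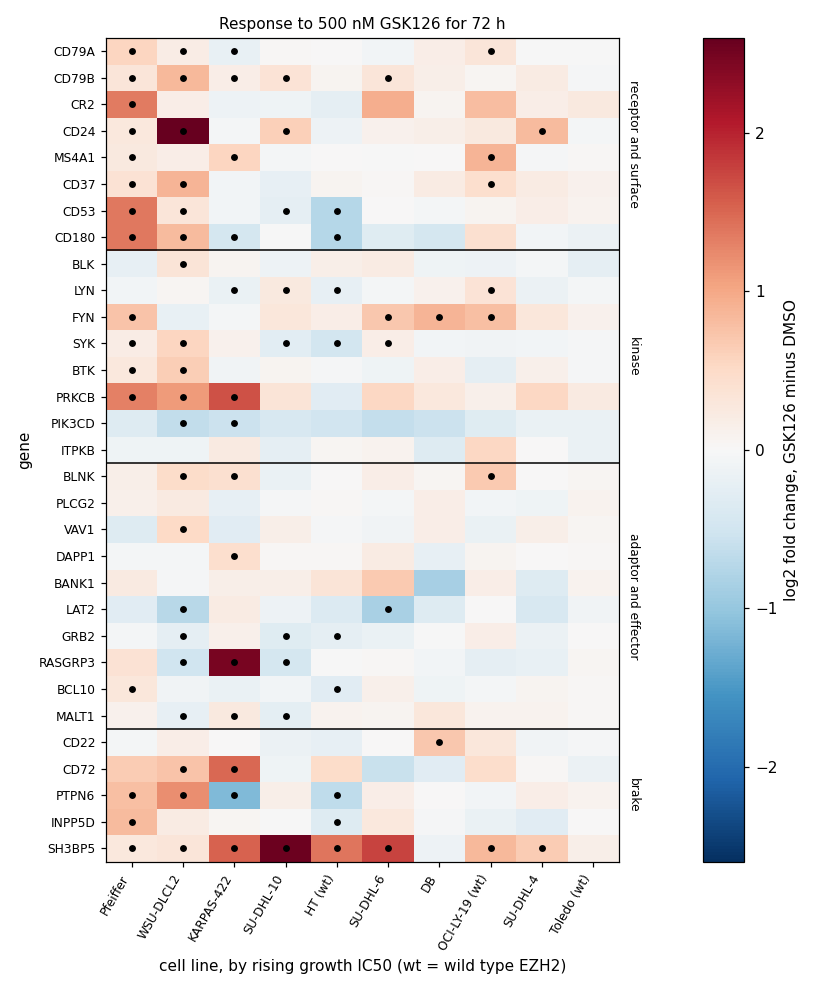
Change of each of the 31 genes with 500 nM GSK126 for 72 h in each of the 10 lines, as the log2 fold change from 2 DMSO to 2 GSK126 arrays; a dot marks a pair called at an adjusted p under 0.05 (limma). SH3BP5 carries a dot in 8 lines and CD79B in 5, and the Toledo column carries none.

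The roles contributed unequally. Receptor and surface genes were called risen in 28.8% of their 80 pairs and fallen in 6.25%, and brakes in 28% and 6% of their 50 pairs. SH3BP5 alone gave 8 of the 14 risen pairs of brakes, and the other 4 brakes were risen in 15% of 40 pairs. Kinases were risen in 18.8% and fallen in 7.5% of 80 pairs. Adaptors and effectors were risen in 8% and fallen in 10% of 100 pairs. Over all genes 7.55% of pairs were risen and 5.13% fallen, so adaptors and effectors lay near the background in rises and above it in falls, with the highest share of fallen pairs among the 4 roles. Of the pairs that changed by at least 1 log2 unit, 7 were brakes, 4 receptor and surface genes, 3 kinases and 1 an adaptor or effector, and 4 of the 7 brake pairs were of SH3BP5. With arrays at equal medians the shares risen and fallen were 15% and 11.2% for receptor and surface genes, 22% and 8% for brakes, 8.75% and 10% for kinases, 2% and 18% for adaptors and effectors, and 3.85% and 9.77% for all genes. The difference between roles was not tested, since genes of the same role are not replicates.

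**Figure D3:**
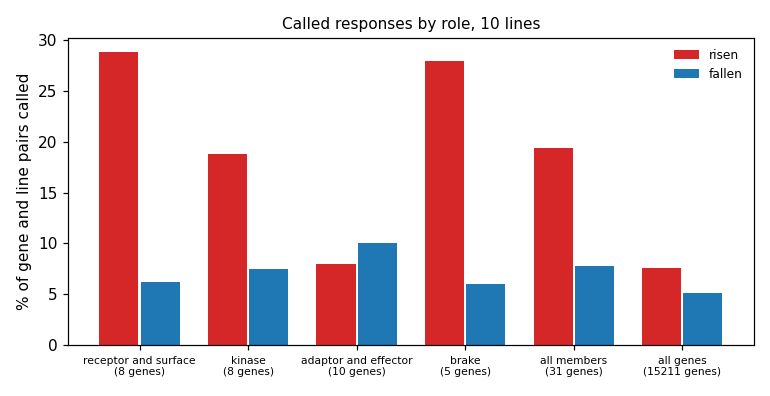
Share of pairs of a gene and a line that were called risen or fallen with GSK126, in percent, for each role, for all 31 genes and for all 15211 genes tested, over the 10 lines. Receptor and surface genes and brakes reach 28.8% and 28% risen, and adaptors and effectors 8%.

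Among the receptor chains, CD79B rose in 5 lines, all with mutant EZH2. In WSU-DLCL2 its arrays went from 11.78 and 11.80 under DMSO to 12.67 and 12.62 under GSK126, a rise of 0.85 ± 0.06 (SE, n = 2 arrays per treatment; adjusted p = 8.42e-12). In the other 4 lines the rise was smaller, 0.31 in Pfeiffer, 0.18 in KARPAS-422, 0.32 in SU-DHL-6 and 0.35 in SU-DHL-10, each with an SE of 0.06. The wild type lines gave 0.08 in HT, 0.06 in OCI-LY-19 and -0.04 in Toledo, and the remaining mutant lines 0.15 in DB (adjusted p = 0.183) and 0.21 in SU-DHL-4 (adjusted p = 0.0533), none of them called. The rises other than in WSU-DLCL2 were not called with arrays at equal medians (0.00 in KARPAS-422, 0.16 in Pfeiffer, 0.13 in SU-DHL-6 and 0.09 in SU-DHL-10) or with the mean of all 3 probe sets of the gene, which correlated at 0.44 on average with the probe set used. That in Pfeiffer was also lost with quantile normalization (0.12). The call in KARPAS-422 was also lost without DMSO replicate 2, GSK126 replicate 1 or GSK126 replicate 2 (0.12 to 0.19).

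CD79A, the partner chain of CD79B, was low in Pfeiffer. The DMSO arrays there read 8.73 and 8.72, against 11.00 and 11.13 in OCI-LY-19 and 12.67 to 13.56 in the other 8 lines. With GSK126 it went to 9.33 and 9.23 in Pfeiffer, a rise of 0.55 ± 0.06 (adjusted p = 5.02e-08), and remained below the DMSO level of every other line. It rose by 0.32 ± 0.06 in OCI-LY-19 and by 0.19 ± 0.06 in WSU-DLCL2 and fell by 0.20 ± 0.06 in KARPAS-422. These smaller calls were lost when 1 array was left out: OCI-LY-19 without DMSO replicate 1 (0.26, adjusted p = 0.0642), WSU-DLCL2 without DMSO replicate 1 or GSK126 replicate 1 (0.14 to 0.16) and KARPAS-422 without either of the same (-0.18 to -0.16). The rise in WSU-DLCL2 turned to -0.06 with arrays at equal medians. The promoter window of CD79A is shown because it is poor in CG dinucleotides, which are printed in capitals; the window runs from 250 bases before to 50 after the RefSeq start, chr19:41877029-41877328 on the plus strand of GRCh38.p14, and holds 4 of them:
CD79A promoter: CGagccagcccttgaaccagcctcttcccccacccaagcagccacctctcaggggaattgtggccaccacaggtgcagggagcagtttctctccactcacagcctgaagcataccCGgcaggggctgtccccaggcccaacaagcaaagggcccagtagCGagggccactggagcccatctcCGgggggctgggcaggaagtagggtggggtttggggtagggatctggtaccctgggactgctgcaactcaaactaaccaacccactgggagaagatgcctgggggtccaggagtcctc

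Other surface genes moved strongly in Pfeiffer. CD53, a tetraspanin of leukocytes, went from 9.93 and 9.75 to 11.29 and 11.12, a rise of 1.37 ± 0.06 or 2.58-fold (adjusted p = 2.37e-15). CD180, a Toll-like receptor homologue that modulates B cell activation, went from 4.81 and 4.87 to 6.36 and 6.05, also 1.37 (± 0.14, adjusted p = 2.45e-08), with all 4 arrays below or within the range of the array medians. CR2, the complement receptor that pairs with the B cell receptor, went from 6.13 and 5.80 to 7.36 and 7.26 (1.35 ± 0.31, adjusted p = 0.00181). CR2 was above the array median on only 10 arrays, its 2 probe sets correlated at -0.05, and its call in Pfeiffer was lost on the deposited values without a pseudocount (adjusted p = 0.0686). All 8 receptor and surface genes were called risen in Pfeiffer, with a median of 0.46. The rises of CD24 (0.27 ± 0.09) and MS4A1 (0.26 ± 0.08) turned to -0.05 and -0.01 with quantile normalization, and both calls were lost without DMSO replicate 1 or GSK126 replicate 2 (0.20 to 0.21). That of CD37 (0.37 ± 0.12) was lost without DMSO replicate 1 or without either GSK126 array (0.24 to 0.37).

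HT went the other way for CD53 and CD180. CD53 went from 11.89 and 11.84 to 11.17 and 11.08 there, a fall of 0.74 ± 0.06 (adjusted p = 5.46e-09), which the mean of its 3 probe sets did not pass (-0.41, adjusted p = 0.129). CD180 went from 10.98 and 10.68 to 10.15 and 10.00, a fall of 0.75 ± 0.14 (adjusted p = 0.000562). In WSU-DLCL2 both genes rose, CD53 by 0.32 ± 0.06 (0.07 and not called with arrays at equal medians) and CD180 by 0.83 ± 0.14, and no receptor or surface gene was called fallen in that line. CD180 fell by 0.46 ± 0.14 in KARPAS-422, where the call was lost without DMSO replicate 1, DMSO replicate 2 or GSK126 replicate 2 (-0.48 to -0.37), and CD53 fell by 0.24 ± 0.06 in SU-DHL-10, lost without replicate 2 of either treatment (-0.21 to -0.19).

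CD24 gave the largest rise of all members. Its probe set is of a kind (suffix x_at) that may also bind other transcripts, and correlated at 0.99 on average with the other sets of the gene. In WSU-DLCL2, where it was low, its arrays went from 8.34 and 8.41 to 10.93 and 11.01, a rise of 2.60 ± 0.09 or 6.05-fold (adjusted p = 1.44e-17). It also rose in SU-DHL-4, from 10.98 and 10.80 to 11.70 and 11.73 (0.82 ± 0.09), and in SU-DHL-10, from 12.87 and 12.74 to 13.41 and 13.44 (0.61 ± 0.09). In HT, the other line with a low level, the arrays read 7.31 and 7.29 under DMSO and the change was -0.13, not called. MS4A1 rose in KARPAS-422 from 13.52 and 13.51 to 14.05 and 14.09 (0.55 ± 0.08, adjusted p = 2.75e-06). In OCI-LY-19 it went from 5.44 and 5.84 to 6.50 and 6.55 (0.88 ± 0.08), a call that the mean of its 4 probe sets did not pass (0.09, adjusted p = 0.584). The SE pools all lines, and the call was also lost with that line fitted alone. CD37, a tetraspanin, rose in WSU-DLCL2 from 11.80 and 12.02 to 12.78 and 12.81 (0.89 ± 0.12), but its 2 probe sets correlated at -0.21 and their mean was not called there (0.29, adjusted p = 0.455). Its rise in OCI-LY-19, 0.44 ± 0.12, was lost without DMSO replicate 1 or either GSK126 array (0.20 to 0.49).

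Among the kinases, PRKCB rose most. PRKCB encodes protein kinase C beta, which links diacylglycerol to NF-kB. In KARPAS-422 its arrays went from 8.32 and 8.07 to 9.78 and 9.94, a rise of 1.66 ± 0.27 (3.17-fold, adjusted p = 1.64e-05). Pfeiffer went from 7.55 and 8.13 to 9.09 and 9.22 (1.31 ± 0.27, adjusted p = 0.000446), and WSU-DLCL2 from 7.49 and 7.91 to 8.87 and 8.76 (1.11 ± 0.27, adjusted p = 0.00211). These 3 lines have the lowest growth IC50 values. The change was positive and not called in SU-DHL-10 (0.33), SU-DHL-6 (0.53), DB (0.27), SU-DHL-4 (0.53), OCI-LY-19 (0.13) and Toledo (0.24), and was -0.29 in HT. No array left out and no setting ended the 3 calls. The promoter window of PRKCB, chr16:23835733-23836032 on the plus strand of GRCh38.p14, is shown as a CG-rich contrast to that of CD79A, with 38 CG dinucleotides in capitals:
PRKCB promoter: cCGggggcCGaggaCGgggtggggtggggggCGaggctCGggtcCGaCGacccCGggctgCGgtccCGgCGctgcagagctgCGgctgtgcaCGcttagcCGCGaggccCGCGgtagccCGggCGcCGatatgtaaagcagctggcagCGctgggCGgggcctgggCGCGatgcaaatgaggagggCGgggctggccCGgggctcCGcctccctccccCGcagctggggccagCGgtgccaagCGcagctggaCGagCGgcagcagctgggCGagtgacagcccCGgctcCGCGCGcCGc

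PIK3CD gave lower levels with GSK126. The change was negative in 10 of 10 lines, from -0.63 in WSU-DLCL2 to -0.18 in SU-DHL-4 and Toledo. It was called in WSU-DLCL2, from 11.44 and 11.31 to 10.74 and 10.75 (-0.63 ± 0.21, adjusted p = 0.0246), and in KARPAS-422, from 10.81 and 10.97 to 10.19 and 10.47 (-0.56 ± 0.21, adjusted p = 0.0449). Both calls were lost whichever of the 4 arrays of the line was left out (adjusted p 0.0575 to 0.143 and 0.0501 to 0.278).

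SYK, the kinase recruited to the phosphorylated receptor, was called in both directions. In WSU-DLCL2 it went from 10.62 and 10.65 to 11.21 and 11.16 (0.55 ± 0.06, adjusted p = 1.5e-08). It went down in HT, from 11.67 and 11.64 to 11.13 and 11.21 (-0.48 ± 0.06, adjusted p = 7.25e-07), and in SU-DHL-10, from 11.77 and 11.71 to 11.46 and 11.46 (-0.28 ± 0.06). Its rises of 0.19 in Pfeiffer and 0.17 in SU-DHL-6 were each lost without 1 array, in Pfeiffer without DMSO replicate 2 or GSK126 replicate 2 (0.16 to 0.18) and in SU-DHL-6 without replicate 1 of either treatment (0.12 to 0.13). The rise in SU-DHL-6 was -0.01 with arrays at equal medians. BTK rose in WSU-DLCL2 from 11.22 and 11.19 to 11.86 and 11.82 (0.64 ± 0.10). Its rise in Pfeiffer, 0.28 ± 0.10, was lost without either DMSO array or GSK126 replicate 1 (0.15 to 0.30).

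LYN changes were small in every line. The kinase rose in OCI-LY-19 from 10.51 and 10.57 to 10.91 and 10.86 (0.35 ± 0.06) and in SU-DHL-10 by 0.26 ± 0.06, and both calls were lost with arrays at equal medians (0.27 and 0.01). It fell by 0.17 ± 0.06 in KARPAS-422, lost without replicate 1 of either treatment (-0.15 to -0.14), and by 0.21 ± 0.06 in HT, lost without any of the 4 arrays (-0.23 to -0.19). FYN was called risen in Pfeiffer (0.75), SU-DHL-6 (0.70), DB (0.88) and OCI-LY-19 (0.79), each with an SE of 0.20. None of these 4 calls was kept under every omission. Pfeiffer was lost without GSK126 replicate 1 (0.66, adjusted p = 0.072), SU-DHL-6 and DB without any of their arrays (adjusted p 0.087 to 0.111 and 0.0588 to 0.111), and OCI-LY-19 without DMSO replicate 2, GSK126 replicate 1 or GSK126 replicate 2 (0.19 to 0.79). The DMSO arrays of FYN in OCI-LY-19 read 7.01 and 5.80, and the call was also lost with that line fitted alone. BLK was called risen in WSU-DLCL2 (0.34 ± 0.12), a call lost without DMSO replicate 1 or either GSK126 array (0.26 to 0.37), and changed by -0.23 to 0.22 without a call in the other lines. ITPKB, which phosphorylates the second messenger IP3, ranged from -0.34 in DB to 0.53 in OCI-LY-19 with no call.

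Among the adaptors and effectors, RASGRP3 gave the only called change of at least 1 log2 unit. In KARPAS-422 it went from 7.07 and 6.90 to 9.44 and 9.45, a rise of 2.46 ± 0.15 or 5.50-fold (adjusted p = 1.41e-13). The other lines gave -0.52 to 0.38 for this gene. Its falls in WSU-DLCL2 (-0.52 ± 0.15) and SU-DHL-10 (-0.45 ± 0.15) were lost when 1 array was left out, GSK126 replicate 2 in WSU-DLCL2 (-0.47, adjusted p = 0.0732) and DMSO replicate 1, DMSO replicate 2 or GSK126 replicate 2 in SU-DHL-10 (-0.45 to -0.32). BLNK, the adaptor that joins SYK and BTK to PLCG2, rose in OCI-LY-19 from 11.67 and 11.58 to 12.32 and 12.30 (0.68 ± 0.09, adjusted p = 2.11e-05), in WSU-DLCL2 by 0.47 ± 0.09 and in KARPAS-422 by 0.41 ± 0.09. The last 2 were not called with arrays at equal medians (0.22 and 0.24). LAT2, a transmembrane adaptor related to the T cell adaptor LAT, fell in SU-DHL-6 from 11.16 and 11.11 to 10.23 and 10.37 (-0.84 ± 0.16, adjusted p = 0.000455) and in WSU-DLCL2 from 12.04 and 11.85 to 11.23 and 11.21 (-0.72 ± 0.16, adjusted p = 0.000754). The mean of its 2 probe sets was called in neither (-0.33 and -0.25).

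The remaining adaptors gave isolated calls. VAV1 rose in WSU-DLCL2 (0.51 ± 0.13), and not with arrays at equal medians (0.26). DAPP1, an adaptor that binds the lipid product of PI3K, rose in KARPAS-422 (0.43 ± 0.14), lost without DMSO replicate 1 or either GSK126 array (0.26 to 0.48). GRB2, the adaptor to the Ras exchange factor SOS, fell by 0.24 in WSU-DLCL2, 0.31 in SU-DHL-10 and 0.23 in HT, each with an SE of 0.07. The fall in SU-DHL-10 was -0.14 without DMSO replicate 1, which read 12.03 against 11.69 for replicate 2. The fall in WSU-DLCL2 was lost without either DMSO array or GSK126 replicate 1 (-0.25 to -0.21) and that in HT without any array (-0.25 to -0.22). MALT1, the protease of the BCL10 complex, fell in WSU-DLCL2 (-0.22) and SU-DHL-10 (-0.26) and rose in KARPAS-422 (0.25), and BCL10 rose in Pfeiffer (0.29) and fell in HT (-0.30). None of these 5 calls was kept under every omission; the MALT1 falls were lost without any array (-0.25 to -0.20 and -0.26), its rise without either DMSO array or GSK126 replicate 1 (0.18 to 0.27), and the BCL10 calls without 3 of 4 arrays each (0.24 to 0.33 in Pfeiffer without GSK126 replicate 2 or either DMSO array, and -0.34 to -0.21 in HT without DMSO replicate 1 or either GSK126 array).

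The brake SH3BP5 was the member called in the most lines. SH3BP5 binds BTK and lowers its activity. Its probe set is of the same kind as that of CD24, and correlated at 0.97 with the other probe set of the gene. It was called risen in 8 of 10 lines, of both genotypes. In SU-DHL-10 its arrays went from 7.41 and 7.31 to 9.76 and 10.06, a rise of 2.55 ± 0.10 or 5.85-fold (adjusted p = 5.33e-17). SU-DHL-6 went from 8.02 and 8.12 to 9.71 and 9.95 (1.76 ± 0.10, adjusted p = 6.71e-13), KARPAS-422 from 6.40 and 6.65 to 8.15 and 7.98 (1.54 ± 0.10, adjusted p = 8.97e-13) and HT from 7.80 and 7.71 to 9.12 and 9.16 (1.39 ± 0.10, adjusted p = 1.33e-10). These are 3 mutant lines and 1 wild type line, and in each the 2 GSK126 arrays lay at least 1 log2 unit above the DMSO arrays. The rise was 0.84 in OCI-LY-19, from 6.52 and 6.44 to 7.31 and 7.34, and 0.67 in SU-DHL-4, from 10.23 and 10.19 to 10.90 and 10.87. The call in OCI-LY-19 was lost with that line fitted alone. The smallest rises, 0.27 in Pfeiffer (11.79 and 11.84 to 12.13 and 12.05) and 0.31 in WSU-DLCL2 (11.87 and 11.74 to 12.10 and 12.14), were lost when 1 array was left out, any of the 4 in Pfeiffer (0.23 to 0.31) and DMSO replicate 2 or either GSK126 array in WSU-DLCL2 (0.25 to 0.33). DB read 12.05 and 12.10 under DMSO and 11.95 and 11.94 under GSK126, and Toledo 10.87 and 10.83 against 10.89 and 11.14, neither called.

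The 5 lines with the lowest DMSO level of SH3BP5, between 6.40 and 8.12, were the 5 with rises of 0.84 to 2.55, while the 5 lines whose DMSO arrays read 10.19 to 12.10 changed by -0.13 to 0.67. The DMSO arrays enter both quantities, so this is a description of the lines and was not tested. The promoter window of SH3BP5, chr3:15332537-15332836 on the minus strand of GRCh38.p14, is shown because this gene was called in the most lines; its 31 CG dinucleotides are in capitals:
SH3BP5 promoter: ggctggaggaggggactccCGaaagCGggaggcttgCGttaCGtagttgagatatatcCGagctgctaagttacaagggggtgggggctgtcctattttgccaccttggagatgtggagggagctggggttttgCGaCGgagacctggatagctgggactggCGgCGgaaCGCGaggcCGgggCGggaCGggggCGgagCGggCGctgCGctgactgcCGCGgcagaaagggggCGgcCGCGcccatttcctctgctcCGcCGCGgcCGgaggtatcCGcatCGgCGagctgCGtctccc

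CD72, an inhibitory coreceptor, rose in KARPAS-422 from 4.52 and 5.32 to 6.51 and 6.34 (1.50 ± 0.25, adjusted p = 2.54e-05), where the DMSO arrays lay below the array median. Its rise in WSU-DLCL2, from 10.60 and 10.67 to 11.35 and 11.41 (0.74 ± 0.25), was lost whichever array was left out (adjusted p 0.0787 to 0.119). It changed by -0.57 in SU-DHL-6 and 0.65 in Pfeiffer without a call. The window of CD72, chr9:35618364-35618663 on the minus strand of GRCh38.p14, holds 6 CG dinucleotides, in capitals, and is shown as the CG-poor counterpart among the brakes to that of SH3BP5:
CD72 promoter: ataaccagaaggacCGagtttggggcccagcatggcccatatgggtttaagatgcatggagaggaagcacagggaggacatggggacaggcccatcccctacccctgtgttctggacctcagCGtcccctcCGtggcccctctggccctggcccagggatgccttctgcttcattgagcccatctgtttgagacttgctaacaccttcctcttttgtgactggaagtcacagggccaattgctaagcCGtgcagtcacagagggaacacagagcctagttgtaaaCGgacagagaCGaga

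PTPN6, the phosphatase that CD22 and CD72 recruit, was called in 4 lines and in opposite directions. WSU-DLCL2 went from 9.92 and 9.91 to 11.18 and 11.07 (1.21 ± 0.12, adjusted p = 8.57e-09) and Pfeiffer from 7.86 and 8.15 to 8.83 and 8.77 (0.79 ± 0.12, adjusted p = 9.06e-06). KARPAS-422 went from 12.82 and 12.77 down to 11.60 and 11.68 (-1.15 ± 0.12, 2.22-fold lower, adjusted p = 1.14e-08) and HT from 11.43 and 11.36 to 10.75 and 10.70 (-0.67 ± 0.12, adjusted p = 0.000267). The lines in which it fell had the highest and the second highest DMSO level. None of the 4 calls was lost under any setting or omission tried. In the other 6 lines the change lay between -0.07 and 0.17.

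INPP5D rose in Pfeiffer from 9.54 and 9.66 to 10.40 and 10.45 (0.82 ± 0.11, adjusted p = 1.07e-06). Its fall in HT, 0.34 ± 0.11, was lost whichever array was left out (-0.39 to -0.30). CD22, a sialic-acid-binding inhibitory receptor, was called only in DB, the line with its lowest DMSO level, where it went from 9.14 and 8.92 to 9.76 and 9.70 (0.70 ± 0.09, adjusted p = 5.75e-06). This call was kept under every setting and omission tried.

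**Figure D4:**
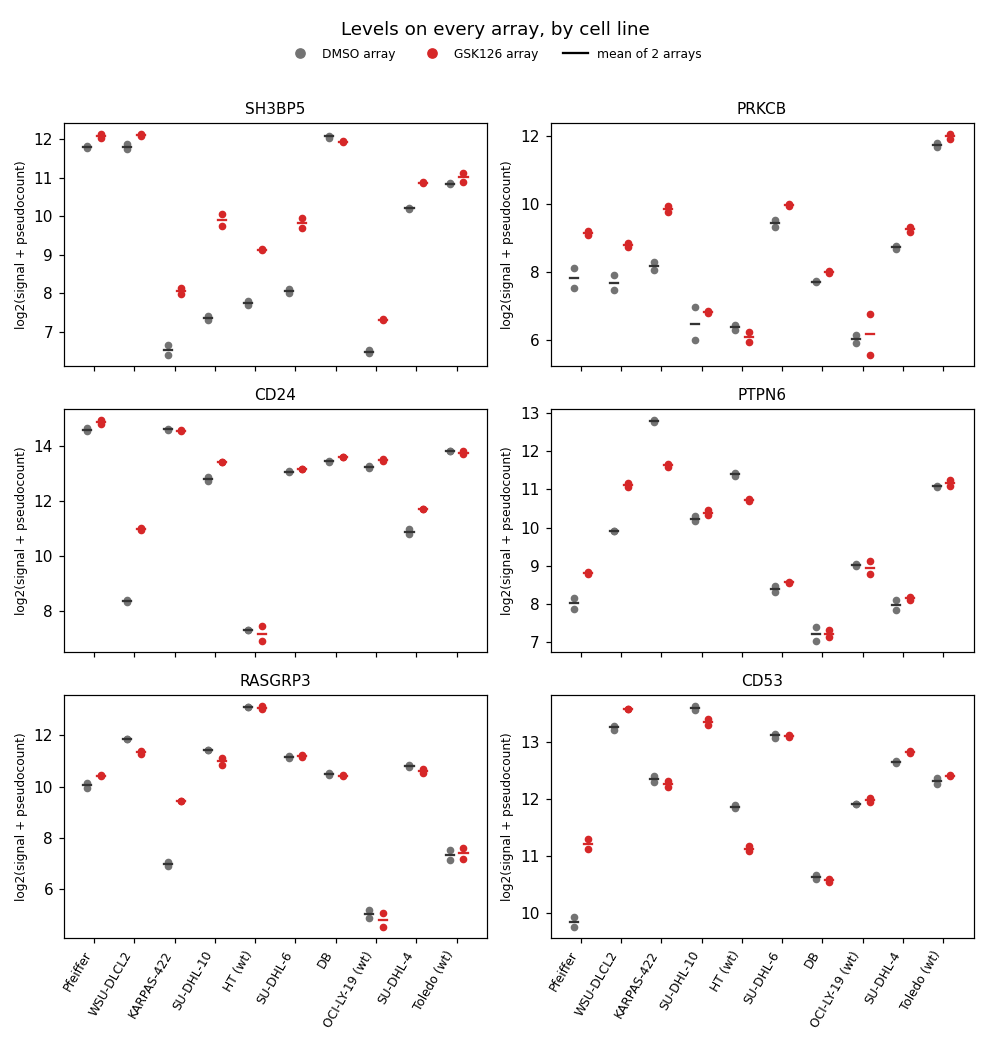
Level on every array, as log2(signal + 17.72), of SH3BP5, PRKCB, CD24, PTPN6, RASGRP3 and CD53 in the 10 lines, with DMSO arrays in grey, GSK126 arrays in red and a bar at each mean of 2 arrays; each panel has its own axis, which does not start at 0. SH3BP5 rises from between 6.40 and 8.12 in HT, KARPAS-422, SU-DHL-6 and SU-DHL-10, and PTPN6 rises in WSU-DLCL2 and falls in KARPAS-422.

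Whether the response differed between lines was tested directly. The F test over the 10 lines passed for 26 of 31 members, against 38.8% of all genes (limma, adjusted). BLK, PIK3CD, ITPKB, PLCG2 and DAPP1 did not pass, with adjusted p between 0.065 for BLK and 0.813 for PIK3CD. The range of levels over the 10 lines was narrower under GSK126 than under DMSO for 22 of 31 members (71%), against 52.6% of all genes, and the median range went from 4.80 to 4.43 log2 units for the members and from 1.59 to 1.58 for all genes.

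With the line as the replicate, 5 members passed for the mean response of the 7 mutant lines. CD79B (0.34 ± 0.07, adjusted p = 0.0143), PRKCB (0.82 ± 0.16, adjusted p = 0.0104) and SH3BP5 (1.00 ± 0.27, adjusted p = 0.036) rose, where 6.7% of all genes rose (limma). PIK3CD (-0.47 ± 0.06, adjusted p = 0.00299) and LAT2 (-0.36 ± 0.10, adjusted p = 0.0424) fell, where 3.27% of all genes fell. PIK3CD changed downward in 7 of 7 mutant lines. PRKCB and PIK3CD passed under every setting tried. LAT2 was lost without any of the 7 mutant lines except KARPAS-422 (-0.40 to -0.28), and also without each wild type line, which feeds the pooled variance. With the mean of its probe sets LAT2 gave -0.17 (adjusted p = 0.176). SH3BP5 was lost without SU-DHL-10 (0.74), SU-DHL-6 (0.87), KARPAS-422 (0.91), WSU-DLCL2 (1.11) or OCI-LY-19 (1.00), and CD79B with arrays at equal medians (0.20, adjusted p = 0.0583) and with the mean of its probe sets (0.24, adjusted p = 0.231).

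For the mean of the 3 wild type lines 0 members passed, with 1 at an unadjusted p under 0.05 (PIK3CD, -0.33 ± 0.10). The response of mutant against wild type lines passed for 0 members and 0% of all genes. At an unadjusted p under 0.05 there were 2 members, CD79B with a mutant minus wild type difference of 0.31 ± 0.13 and PRKCB with 0.79 ± 0.29 (limma, smallest adjusted p = 0.991). The slope of the response on log10 of the growth IC50 passed for 0 members and for 0.00657% of all genes. CD79B (-0.18 ± 0.08 per 10-fold), PRKCB (-0.45 ± 0.19) and INPP5D (-0.30 ± 0.10) had an unadjusted p under 0.05 (limma, smallest adjusted p = 0.305). The median slope was -0.11 for the members and -0.01 for all genes, over the same 10 lines.

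A tag in the labels (R6, R7 or R8), of unstated meaning and taken here as a possible batch, splits the lines into 3 sets, each with mutant and wild type lines. Under tag R7 the mean response of PRKCB was 0.56 in 4 mutant lines and -0.29 in the wild type line, under R6 it was 1.49 in 2 and 0.24 in 1, and under R8 0.53 and 0.13 in 1 line each. For CD79B the same means were 0.39 and 0.08 under R7, 0.24 and -0.04 under R6, and 0.32 and 0.06 under R8. For SH3BP5 the wild type line was higher under R7, at 1.39 against 0.85, and lower under R6 (0.16 against 0.91) and R8 (0.84 against 1.76).

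Under DMSO no member differed between genotypes after adjustment (0 members, 0.0526% of all genes). At an unadjusted p under 0.05 CR2 was lower in mutant lines by a difference of -2.60 ± 0.57, with a mean of 4.89 ± 0.52 in mutant and 7.49 ± 1.56 in wild type lines (SD, n = 7 and 3; limma adjusted p = 0.325). MS4A1 (3.45 ± 1.29), CD37 (3.08 ± 1.02) and PLCG2 (0.75 ± 0.28) were higher at an unadjusted p under 0.05. OCI-LY-19 held the lowest level of MS4A1 and CD37, and Toledo that of PLCG2. Without HT, CD37 passed (4.62, limma adjusted p = 0.0293), and the share of all genes passing under that omission was not computed. The wild type side was then OCI-LY-19 (5.94) and Toledo (9.72) alone. HT itself read 12.46, near the mutant mean of 12.45, and the 2 probe sets of CD37 correlated at -0.21.

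A longer list of the pathway, 106 further genes of which 90 were tested, set the members in context. It too was chosen with earlier results of these data known. Over the 10 lines 11.4% of its pairs were risen and 7.67% fallen, against 19.4% and 7.74% for the members and 7.55% and 5.13% for all genes. In Pfeiffer 32 of the 90 rose and 11 fell, where 14.6% of all genes rose and 9.93% fell. KARPAS-422 had 21 and 14 (15.5% and 13.4% of all genes) and WSU-DLCL2 18 and 15 (13.9% and 12.7%). In SU-DHL-6 they were 11 and 10 (7.42% and 3.56%), in SU-DHL-10 9 and 11 (11% and 7.16%) and in HT 2 and 6 (6.31% and 3%). OCI-LY-19 had 6 and 0 (1.97% and 0.44%) and DB 3 and 1 (2.5% and 0.618%). SU-DHL-4 had 0 and 1 (2.14% and 0.454%) and Toledo 1 and 0 (0.138% and 0.0263%). Its 28 brakes were risen in 14.6% and fallen in 5.71% of pairs, and its 18 kinases risen in 6.67% and fallen in 10%. Its 25 adaptors and effectors were risen in 11.2% and fallen in 6.8%, against 8% and 10% for the member adaptors and effectors. The shares were 10% and 5% for its 4 coreceptors, and 12% and 10.7% for its 15 calcium and NFAT genes.

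The 5 largest rises of that list were CD38 in KARPAS-422 (2.15 ± 0.37), a surface enzyme that supports receptor signalling, PRKCE, protein kinase C epsilon, in WSU-DLCL2 (1.81 ± 0.25) and SU-DHL-6 (1.80 ± 0.25), the calcineurin subunit PPP3CA in KARPAS-422 (1.74 ± 0.09), and the inhibitory Fc receptor FCGR2B in WSU-DLCL2 (1.65 ± 0.25). FCGR2B fell in Pfeiffer by 0.84 ± 0.25. The other largest falls were LCP2, an adaptor, in WSU-DLCL2 (-1.07 ± 0.32), NFKBIA, the inhibitor of NF-kB, in the same line (-0.99 ± 0.10), the calcium sensor STIM1 in KARPAS-422 (-0.95 ± 0.26) and the ubiquitin ligase CBLB in WSU-DLCL2 (-0.84 ± 0.07). Of 8 tested genes for immunoglobulin and surrogate chains, 3 rose and 1 fell in KARPAS-422, where 15.5% of all genes rose and 13.4% fell. IGLC1, a lambda constant region whose probe sets can share sequence with its neighbours, rose there by 2.67 ± 0.08, IGLL1 by 1.70 ± 0.40 and IGKC by 1.11 ± 0.25, and VPREB3 fell by 0.86 ± 0.06. VPREB3 rose in WSU-DLCL2 by 0.73 ± 0.06.

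EZH2 itself, the target of the compound, fell in Pfeiffer (-0.65 ± 0.06), SU-DHL-6 (-0.24), HT (-0.19), SU-DHL-10 (-0.30) and WSU-DLCL2 (-0.35), and was not called in the other 5 lines (limma, adjusted). GSK126 is an inhibitor of the enzyme, so these transcript values do not check the labels, and the cause of the falls was not tested.

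Promoter windows of 300 bases from RefSeq (GRCh38.p14) matched 25 of the 31 members with 41 windows, of 35116 windows in all. The median count of CG dinucleotides was 11 in member windows and 14 in all. By this count the windows printed above stand at the percentile 80.2 for SH3BP5, 90.7 for PRKCB, 27.1 for CD79A and 35.2 for CD72. Methylation and EZH2 binding were not measured on these arrays. On both strands, the octamer ATTTGCAT, bound by the B cell factors of the POU family, was in 2 member windows (4.88%, of CD53 and PRKCB) and 1.77% of all windows. The core CCCNNGGG of the EBF1 motif was in 11 member windows (26.8%) against 19.1%, and the core GAGGAA of the PU.1 motif in 16 (39%) against 27.9%. A match is a string in the sequence and no evidence of binding.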

How the data were processed

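The deposited values are log2 signals of 54675 probe sets on 40 one-colour arrays, made by the authors with MAS5 per the submitters' processing notes; its version was not given. MAS5 scales each array by itself, and the linear signals average 500 on every array once 2% is trimmed at each end. They were rescaled to linear, then to log2(signal + 17.72), the pseudocount being the median of the arrays' 25th percentiles, which understates changes of dim genes. A gene was tested if its probe set lay above the array median on at least 2 arrays. Symbols came from the platform annotation, and all 31 matched RefSeq (GRCh38.p14). The fit in limma 3.58.1 (R 4.3.3) had 20 group means, an intensity trend, 20 residual and 6.98 prior degrees of freedom, and errors are its standard errors. It was run on simulated data with independent normal errors and 1 fitted variance per gene, which cannot show how it behaves where lines differ in spread. The 2 arrays of a group are titled biological replicates with no word on separate cultures, so p-values within a line measure the spread between such arrays. Across lines, each line gave 1 value. All 31 members may be named. Every called change of at least 1 log2 unit is given array by array. Members called the same way in at least 5 lines, and per line the 3 largest rises and falls, have array values or only the log2 change. The 5 widest DMSO ranges are given as array values or ranges of them. Changes in the further pathway list, the 5 largest in each direction, are given as log2 change and standard error. The members and lists were chosen with earlier results of these data known. Replicate numbers did not pair the samples (correlations of -0.04 to 0.07).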

Additional observations from a re-analysis of the deposited data

Results flagged for a closer look

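Some lines stood apart from the other 6 mutant lines by Dixon's criterion, in 9 of 62 comparisons over the 7 mutant lines. Chance gives about 1 in 20 for independent, normally distributed values. These comparisons share the same 7 lines, and the share over all genes was not computed, so the count is no result about the members. Under DMSO the flagged values were CD79A in Pfeiffer (8.73, others 12.72 to 13.53), CR2 in Pfeiffer (5.96, others 4.45 to 4.98), GRB2 in Pfeiffer (13.04, others 11.26 to 11.95) and RASGRP3 in KARPAS-422 (6.99, others 10.06 to 11.86). For the log2 response to GSK126 they were CD79B in WSU-DLCL2 (0.85, others 0.15 to 0.35), CD24 in WSU-DLCL2 (2.60, others -0.05 to 0.82), CD53 in Pfeiffer (1.37, others -0.24 to 0.32), RASGRP3 in KARPAS-422 (2.46, others -0.52 to 0.38) and CD22 in DB (0.70, others -0.16 to 0.17).

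The response differed between the 10 lines for 26 of 31 members, against 38.8% of all genes (limma F test, Benjamini-Hochberg adjusted over 15211 genes). Among receptor and surface genes the adjusted p was 1.93e-06 for CD79A, 9.05e-08 for CD79B, 0.0475 for CR2, 7.2e-14 for CD24, 4.55e-07 for MS4A1, 0.000336 for CD37, 9.25e-14 for CD53 and 2.54e-08 for CD180. Among kinases it was 1.37e-05 for LYN, 0.019 for FYN, 3.19e-09 for SYK, 0.000658 for BTK and 0.00249 for PRKCB. For adaptors and effectors it was 0.000136 for BLNK, 0.0118 for VAV1, 0.0427 for BANK1, 0.0074 for LAT2, 0.00312 for GRB2, 1.91e-10 for RASGRP3, 0.032 for BCL10 and 0.0049 for MALT1. The brakes gave 4.39e-05 for CD22, 0.000765 for CD72, 5.15e-10 for PTPN6, 2.12e-05 for INPP5D and 7.47e-14 for SH3BP5.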

How the results depend on the processing

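Counts of called members moved by over 1.5 times under some settings, and the cause was not tested. With arrays at equal medians they went from 16 to 9 in Pfeiffer, 9 to 14 in SU-DHL-10 and 7 to 3 in OCI-LY-19. With each line fitted alone, which leaves few degrees of freedom, SU-DHL-10 had 5 and OCI-LY-19 had 1. With the mean of all probe sets SU-DHL-6 had 2 (against 5) and DB 5 (against 2), and with quantile normalization SU-DHL-4 had 4 (against 2). Leaving out 1 array of the line gave 10 to 13 in Pfeiffer, 5 to 6 in HT (against 9), 13 to 15 in WSU-DLCL2 (against 20), 8 to 12 in KARPAS-422 (against 14), 3 to 5 in SU-DHL-6 and 1 to 2 in DB. For the mean of the mutant lines the 5 members became 3 without an intensity trend, with the R tag as a block, or without SU-DHL-6, SU-DHL-10, OCI-LY-19 or WSU-DLCL2, where LAT2 and SH3BP5 were lost. For the DMSO level by genotype the count went from 0 to 1 without HT. Directions turned in 4 pairs: CD24 and MS4A1 in Pfeiffer with quantile normalization (-0.05 and -0.01), and CD79A in WSU-DLCL2 (-0.06) and SYK in SU-DHL-6 (-0.01) with arrays at equal medians.

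With the replicate number within a line as a replicate block, 73 of 84 called pairs kept their call and 11 lost it, with no change of direction. The counts with the block were 17 in Pfeiffer and in WSU-DLCL2, 10 in SU-DHL-10, 12 in KARPAS-422, 7 in HT, 6 in SU-DHL-6 and in OCI-LY-19, 3 in DB, 2 in SU-DHL-4, 0 in Toledo, and 23 for the response differing between lines. Precision is limited by having 2 arrays per group, and levels under the array median, such as CR2 in most lines and CD180 in Pfeiffer, lie close to background.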
